A study of Rattus norvegicus with 6 samples.

Results

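The comparison was between rat carotid arteries taken 7 days and 1 day after a clot had been cleared, described across all genes and library by library. It used 5 of the 6 libraries of the study, the 2 of day 7 and the 3 of day 1, and left out the 1 normal artery. In all 5 arteries ferric chloride, an oxidizing salt that injures the vessel wall, had produced a clot in the common carotid artery. Flow had then been restored in all 5 by a treatment named physical-explosion therapy together with sonodynamic therapy (a sensitizer activated by ultrasound). By their titles the groups differ only in the time since recanalization, 1 day or 7 days, and neither holds an artery with the injury or the treatment alone. The names in the sample descriptions also differ in style, zhiliaozu at day 1 and Zhi at day 7. What that difference reflects is not given, and it cannot be told apart from time. Strain, age and sex are not given in the labels. The labels do not say whether the libraries of a group come from separate animals, so p-values measure the spread between these samples, which may be technical. Poly(A) RNA of whole pieces of vessel was sequenced, so fewer cells of a type and less RNA per cell cannot be told apart.

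An artery that has lost its inner lining first binds platelets and neutrophils, and the cells of its wall switch on NF-kB, a family of transcription factors that drives cytokines, adhesion molecules and the inducible prostaglandin synthase. Over the following days monocytes become macrophages, smooth muscle cells and the fibroblasts of the outer coat divide and lay down matrix, and endothelial cells regrow over the surface. TGF-beta and BMP ligands act on this repair through Smad proteins, which enter the nucleus and switch on the Id genes and the inhibitory Smads that limit the signal.

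Library totals were 30078022 to 47240013 counts and 16036 to 17195 genes were detected per library. Values below are CPM, counts scaled to a common library total, as edgeR normalizes it. The label of an artery fitted its defining markers, since Acta2, Myh11 and Tagln, of the contractile apparatus of smooth muscle, had at least 1406 CPM in each library. Replicate 1 of day 1 was unlike its fellows. Its log2 CPM correlated across genes, which are not independent replicates, at r = 0.862 and 0.906 with replicates 2 and 3, which correlated at 0.954 with each other, as the day 7 pair did at 0.954. The first principal component, 57.3% of the variance, placed it at -144 and the other 4 libraries between 4.46 and 52.9. The second, 22.6%, placed day 1 replicates 2 and 3 at -67.3 and -39.7, the day 7 libraries at 44.3 and 50.01, and day 1 replicate 1 at 12.7. List medians that moved by more than 1.5 times when this library was left out are given with and without it.

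No gene passed the test. edgeR's quasi-likelihood test called 0 of 14981 genes at an adjusted p under 0.05 (0% of the genes tested), and 0 with day 1 replicate 1 left out. At an unadjusted p under 0.05 it had 706 genes higher at day 7 (4.71% of the genes tested) and 843 lower (5.63%). limma-voom and limma-trend on log2 FPKM also called 0, while DESeq2 called 247 genes higher (1.65%) and 328 lower (2.19%). With limma-trend on log2(FPKM + 1), which moved the median fold change of all genes to 0.0936, the unadjusted split was 1131 higher and 562 lower, and with log2(FPKM + 0.1), where the median was 0.145, 1014 and 596. The groups did not overlap for 2580 genes that were higher at day 7 (17.2%) and for 2448 that were lower (16.3%), and without day 1 replicate 1 for 24.4% and 23% of 14829 genes. Fold changes were above 0 for 49.5% of the genes and below 0 for 50.5%, with a median of -0.0060 on the log2 scale. These shares are the background for each count of list members below. Groups of 3 and 2 libraries allow 10 arrangements, so an exact permutation test of a single gene cannot give a two-sided p below 0.1. "Higher" and "lower" are therefore used of values, not of genes that passed a test, and "separate" means that the groups did not overlap. The adjusted p of edgeR, by Benjamini-Hochberg, was 0.287 for Smad6 and at least 0.397 for every other gene. Brackets after a pair of values give the log2 fold change of day 7 over day 1 with its standard error (SE).

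**Figure D1:**
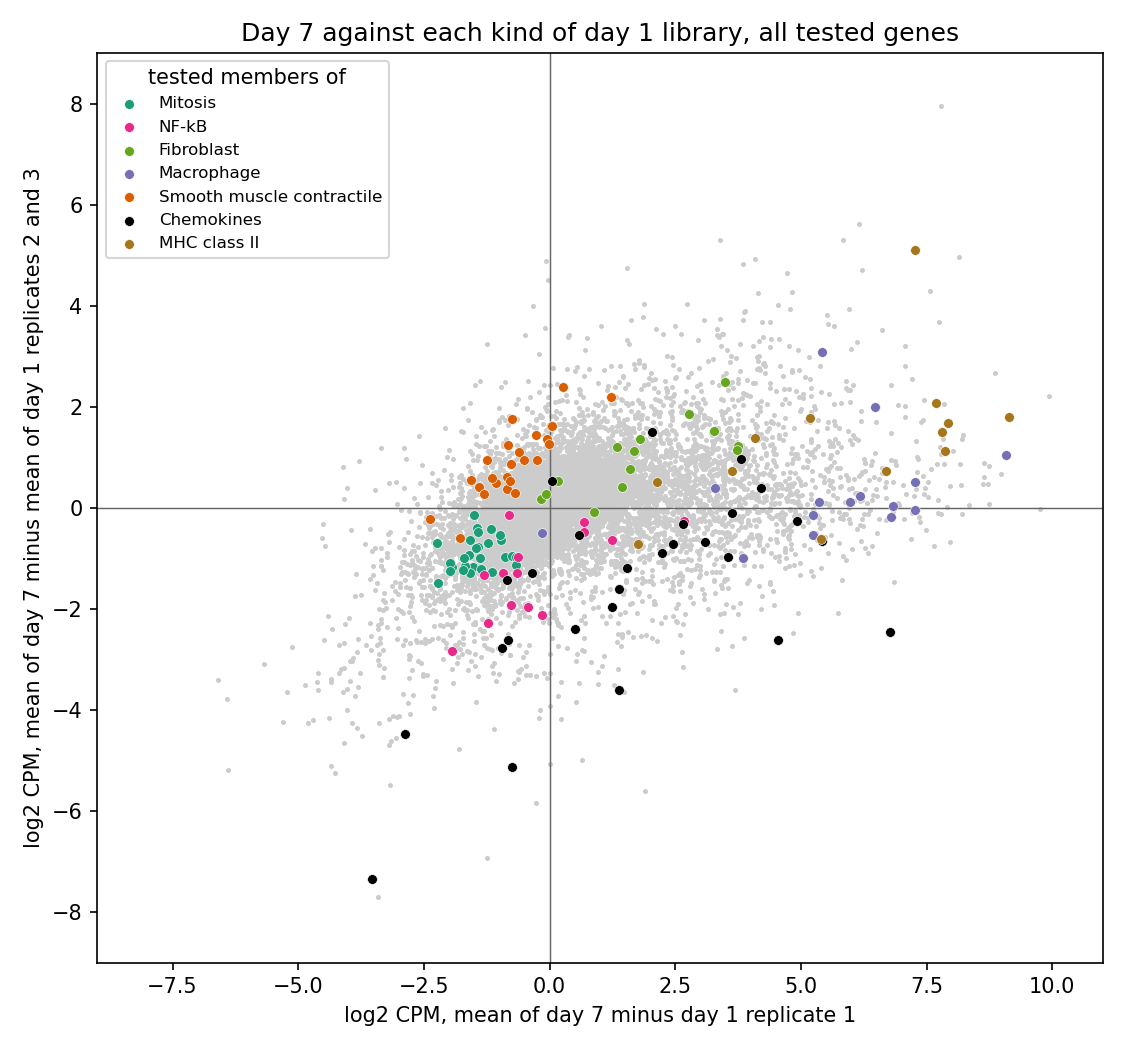
Each point is 1 of the 14981 tested genes. The x axis is the mean log2 CPM of the day 7 libraries minus day 1 replicate 1, the y axis the same minus the mean of day 1 replicates 2 and 3, and members of 7 lists are coloured. The difference had the same sign on both axes for 10439 genes and opposite signs for 4538. Both axes share the day 7 mean, so part of this agreement is built in. Mitosis genes lie in the lower left and fibroblast genes mostly in the upper right, whereas macrophage genes lie far to the right and near 0 on the y axis, and most contractile genes lie in the upper left.

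Of 59 gene lists, 56 had at least 5 tested members. For each of them the median difference was taken in all 6 pairs of a day 7 with a day 1 library. It was negative in all 6 pairs for 10 lists, which hold genes of platelets, red cells, neutrophils, NF-kB, mitosis, DNA replication, ribosome biogenesis, ion channels, glycolysis and the citric acid cycle. It was positive in all 6 pairs for 9 lists, on MHC class II, fibroblasts, complement, T and NK cells, cartilage-type matrix, adipocytes, TGF-beta and BMP, prostanoids and Wnt. In 6 lists day 7 was above day 1 replicate 1 and below replicates 2 and 3, and in 2 lists it was the reverse. The other 29 lists were mixed. DESeq2 called 8 of the 13 tested platelet genes, 6 of the 28 mitosis genes and 3 of the 14 NF-kB genes lower, beside 2.19% of all genes. Without day 1 replicate 1 it called 9, 3 and 8 of them lower, beside 2.67%. It called 4 of the 14 fibroblast genes higher, beside 1.65%, and of the 27 genes of TGF-beta and BMP 7 higher and 2 lower, and without that library 5 fibroblast genes higher, beside 2.38%, and 8 and 3 genes of TGF-beta and BMP. With all 5 libraries it also called lower 3 of 11 red cell, 3 of 11 neutrophil and 3 of 25 ribosome biogenesis genes. Lower too were 2 of 26 ion channel, 1 of 28 DNA replication, 0 of 27 glycolysis and 0 of 14 citric acid cycle genes. Called higher were 3 of 19 complement, 3 of 15 cartilage-type, 1 of 13 MHC class II, 1 of 25 Wnt and 1 of 6 adipocyte genes. For T and NK cells it was 0 of 16 and for prostanoids 0 of 20.

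**Figure D2:**
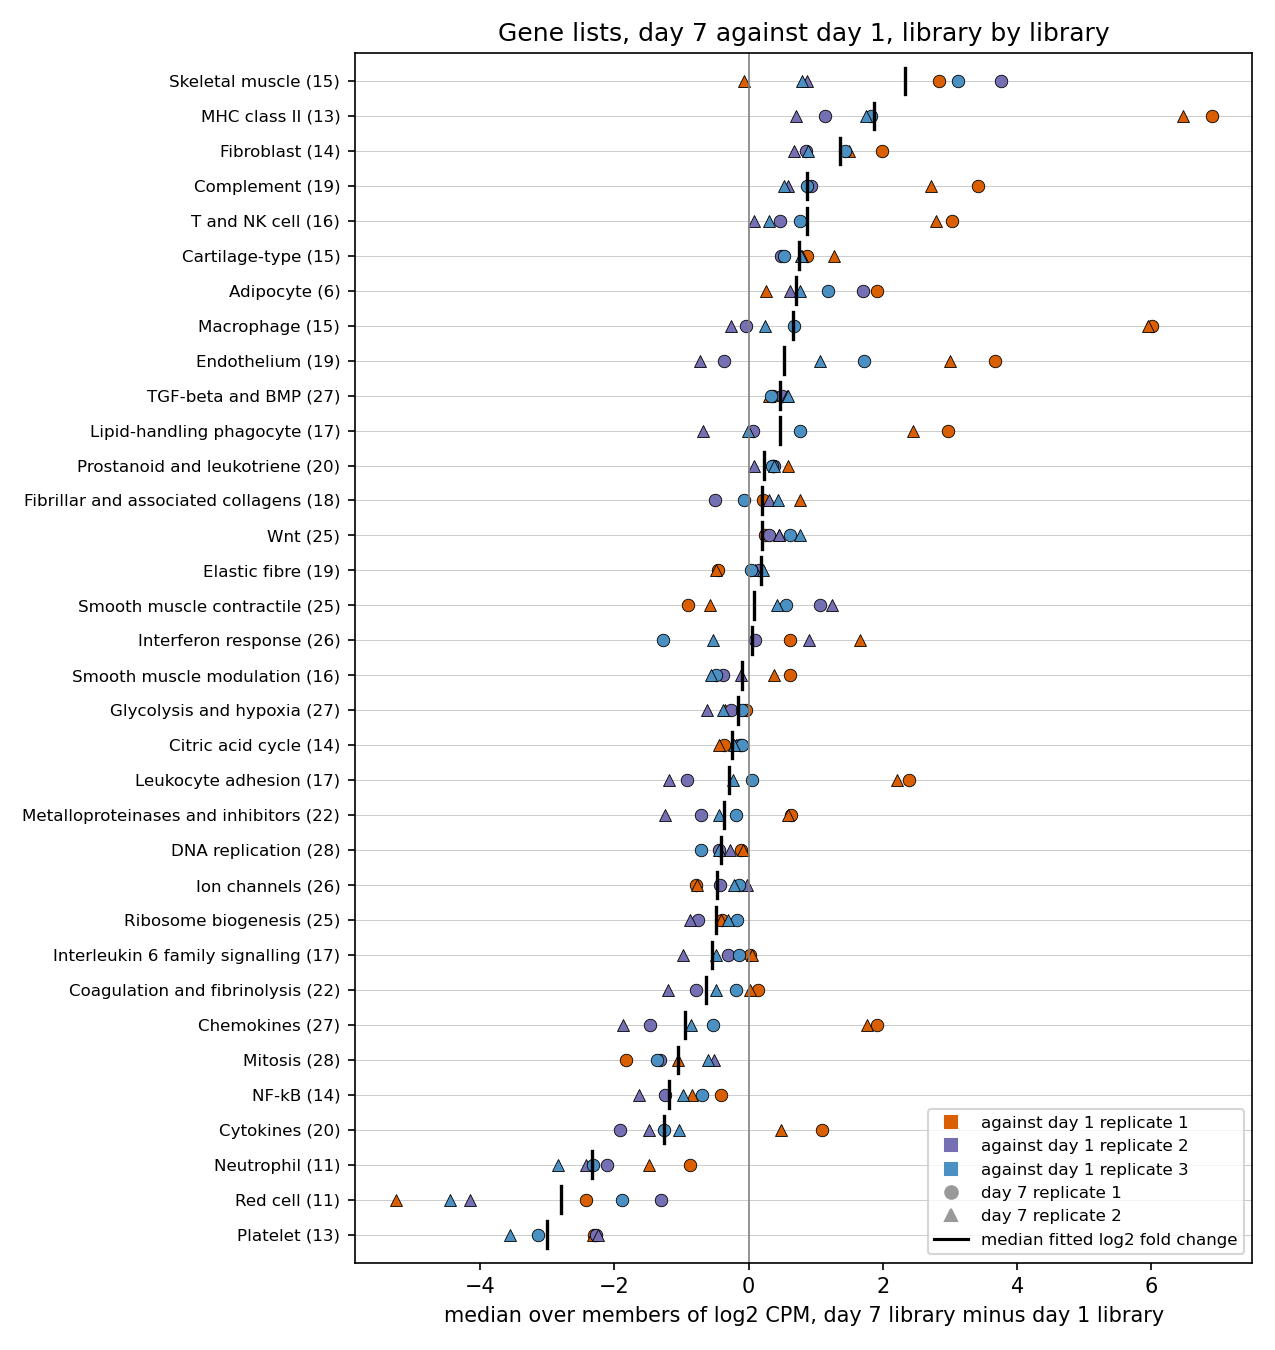
Rows are the 34 gene lists described, with the number of tested members in brackets. Points give the median over members of the difference in log2 CPM for 1 pair of libraries, by day 1 library (colour) and day 7 library (shape), and black bars the median fitted log2 fold change. Platelet, red cell and neutrophil genes lie left of 0 in all pairs, with fitted medians of -3.01, -2.80 and -2.33, and the pairs with day 1 replicate 1 lie far to the right for MHC class II, macrophage and endothelial genes.

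Several genes of the early inflammatory response were lower at day 7 than in any day 1 library. Ptgs2, the inducible prostaglandin synthase, had 229, 160.4 and 160.2 CPM at day 1 and 22.9 and 12.1 CPM at day 7, a log2 fold change of -3.39 (SE 0.40, edgeR adjusted p = 0.397). Sod2, the superoxide dismutase of mitochondria, had 449.7, 593 and 415 CPM against 118 and 126 (-1.99, SE 0.28). Birc3, an inhibitor of cell death and a known NF-kB target, had 43.8, 89.3 and 75.7 CPM against 12.2 and 10.7 (-2.60, SE 0.37). Each of the 3 genes was lower in both day 7 libraries than in any day 1 library, and day 1 replicate 1 was the highest library for Ptgs2, between its fellows for Sod2 and the lowest of day 1 for Birc3. Ptx3, a soluble pattern recognition protein, had 39.7, 33.1 and 18.01 CPM against 3.37 and 4.23 (-2.99, SE 0.44), and Stx11, a membrane fusion protein of immune cells, 50.96, 41.4 and 40.9 CPM against 8.61 and 11.9 (-2.11, SE 0.26).

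Fold changes were negative for 13 of the 14 tested members of the NF-kB list (50.5% of all genes), their median was -1.18, and 7 had groups that did not overlap, all lower (background 16.3%). Without day 1 replicate 1 the median was -1.33 and 10 did not overlap (background 23%). Relb, a subunit of the slower NF-kB pathway, had 40.7, 47.3 and 36.2 CPM at day 1 against 15.8 and 17.03 (-1.34, SE 0.22). Bcl3, a nuclear partner of the NF-kB p50 and p52 subunits, had 31.8, 73.2 and 59.8 CPM against 12.7 and 14.3 (-2.02, SE 0.41). Both were separate between the groups. Nfkb2, which encodes p52, and Nfkbia, the inhibitor that holds NF-kB in the cytoplasm, were chosen after their values were seen to show members that differ. Nfkb2 had 95.5, 146 and 102 CPM against 67.5 and 56.98 (-0.88, SE 0.27), whereas Nfkbia had 119.9, 289 and 252 CPM against 270.1 and 138 (-0.11, SE 0.49), with groups that overlapped.

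The promoters of these genes are shown because several members carry a site for the factor the list is named for. RefSeq windows (build GRCr8) of the 250 bases before the start were searched on both strands for a kappa B site spelled GGGA, any base, TT, any base, CC. Of the 14 tested members, 12 matched a window and 7 of these held the motif (58.3%), beside 124 of 10764 windows of tested genes (1.15%). The list holds known NF-kB targets, such as Birc3, so part of this difference is built in by the choice of members. Bcl3, Nfkb2 and Nfkbia are printed on the strand of the gene, with the motif in capitals. Their windows are chr1:88613556-88613805 (minus strand), chr1:255108124-255108373 (plus strand) and chr6:78597073-78597322 (minus strand).
Bcl3: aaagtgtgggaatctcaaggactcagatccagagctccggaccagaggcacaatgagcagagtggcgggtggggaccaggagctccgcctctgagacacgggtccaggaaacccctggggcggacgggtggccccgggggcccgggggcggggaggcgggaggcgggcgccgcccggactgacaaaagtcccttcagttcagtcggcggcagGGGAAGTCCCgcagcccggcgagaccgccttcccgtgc
Nfkb2: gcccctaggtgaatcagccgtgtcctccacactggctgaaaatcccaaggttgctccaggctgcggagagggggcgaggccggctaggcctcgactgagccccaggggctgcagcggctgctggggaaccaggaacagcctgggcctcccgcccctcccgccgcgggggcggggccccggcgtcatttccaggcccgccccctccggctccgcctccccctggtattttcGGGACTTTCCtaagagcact
Nfkbia: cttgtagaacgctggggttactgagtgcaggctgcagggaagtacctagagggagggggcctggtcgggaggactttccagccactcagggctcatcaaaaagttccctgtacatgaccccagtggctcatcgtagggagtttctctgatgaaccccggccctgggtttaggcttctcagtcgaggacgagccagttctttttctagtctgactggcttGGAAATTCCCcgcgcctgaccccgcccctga
The motif ends 29 bases before the start of Bcl3, 11 before that of Nfkb2 and 22 before that of Nfkbia. A match describes these letters only, and Nfkbia, whose groups overlapped, held one as did Bcl3, whose groups did not.

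Secreted inflammatory signals depended on which day 1 library was used. Il6, which drives the acute phase response, had 61.5, 96.5 and 37.1 CPM at day 1 and 11.4 and 1.16 CPM at day 7 (-3.36, SE 1.08). Lif, a cytokine of the same family, had 18.3, 53.4 and 12.5 CPM against 5.04 and 3.46 (-2.72, SE 0.75). Both were lower at day 7 than in every day 1 library. Il1b, a cytokine of activated myeloid cells, had 3.65, 167 and 97.98 CPM against 21.7 and 8.30, so that day 7 lay above day 1 replicate 1 and below the other two. Il34, a ligand of the macrophage growth factor receptor, was higher, with 1.42, 2.49 and 0.714 CPM against 11.4 and 6.13 (2.51, SE 0.62). Csf3, the granulocyte growth factor, was named after inspection of the values and had 0.549, 42.8 and 3.21 CPM at day 1 and 0 counts in both day 7 libraries. Of 20 tested cytokines 14 had a negative fold change and the median was -1.27, also with Csf3 set to the floor of 3 counts. By pair the median was 0.48 to 1.10 against day 1 replicate 1 and -1.91 to -1.04 against replicates 2 and 3. Groups did not overlap for 6 cytokines that were lower (background 16.3%), and for 12 without day 1 replicate 1 (background 23%).

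Chemokines followed the same split. Cxcl1, which attracts neutrophils, had 94.9, 467 and 178 CPM at day 1 and 29.2 and 5.61 CPM at day 7 (-3.82, SE 1.10). Ccl2, the main signal for monocytes, had 67.1, 408 and 137 CPM against 24.97 and 48.01 (-2.48, SE 0.89). Cx3cl1, a chemokine anchored to endothelium and smooth muscle, had 70.5, 93.1 and 120.01 CPM against 47.9 and 31.8 (-1.24, SE 0.33). Day 7 was below all 3 day 1 libraries for each of them. Cxcl12, a chemokine that stromal cells make at rest, was higher, with 43.8, 63.9 and 62.8 CPM against 169.7 and 190.1 (1.66, SE 0.24, edgeR adjusted p = 0.397). The fold change was negative for 23 of 27 tested chemokines. Their median of -0.94 was -1.42 without day 1 replicate 1 and 0.33 with limma-voom. By pair the median was 1.77 to 1.91 against day 1 replicate 1 and -1.87 to -0.53 against replicates 2 and 3. Separate groups that were lower were found for 7 members (background 16.3%), or 13 without day 1 replicate 1 (background 23%).

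The 3 genes of interleukin 6 signalling with the smallest unadjusted p were lower as well. Osmr, the receptor for oncostatin M, had 250.04, 326 and 187 CPM at day 1 and 74.7 and 108 CPM at day 7 (-1.48, SE 0.34). Socs3 and Socs1, feedback inhibitors of these receptors, had 224, 446 and 449 CPM against 100.2 and 41.8 (-2.39, SE 0.55) and 5.74, 17.8 and 8.82 CPM against 2.85 and 2.60 (-1.98, SE 0.57). All 3 were lower in both day 7 libraries than in any day 1 library. Of 17 tested members 13 had a negative fold change, the median was -0.55 and groups were separate for 4 that were lower (background 16.3%) and 3 that were higher (background 17.2%), both near the background. Without day 1 replicate 1 they were separate for 8 that were lower (background 23%) and 3 that were higher. Vcam1 and Icam1, which hold leukocytes on activated endothelium, had 523, 426 and 583 CPM against 231 and 228 (-1.15, SE 0.26) and 155, 290.4 and 129.8 CPM against 90.9 and 63.2 (-1.31, SE 0.43). Jam2, a protein of endothelial junctions, was higher, with 42.05, 41.1 and 44.8 CPM against 84.6 and 64.6 (0.81, SE 0.20). The 17 leukocyte adhesion genes had a median of -0.30, or -0.86 without day 1 replicate 1, and the sign was positive with limma-voom, both limma-trend fits, the block on title numbers and without day 1 replicate 2.

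Members of the prostanoid list lay on both sides of 0. Ptger4, a receptor for prostaglandin E2, had 2.55, 12.3 and 11.3 CPM at day 1 and 21.5 and 20.5 CPM at day 7 (1.26, SE 0.66), and Alox5, which starts leukotriene synthesis, 0.549, 6.10 and 2.76 CPM against 13.1 and 6.13 (1.62, SE 0.96). Both were lowest in day 1 replicate 1 and higher at day 7 than in any day 1 library. Of 20 tested members 15 had a positive fold change, with a median of 0.22, 3 with separate groups that were higher (background 17.2%) and Ptgs2 the only separate one that was lower. With day 1 replicate 1 left out, 6 were separate and higher (background 24.4%). Interferon response genes had no common direction. Their median was 0.045, or -0.33 without day 1 replicate 1, and changed sign in 7 of 22 alternatives. Of 26 genes, 0 were separate and higher (background 17.2%). Separate and lower were 3 (background 16.3%), or 7 without day 1 replicate 1 (background 23%). The 3 were Rsad2 (27.2, 13.6 and 19.4 CPM against 2.15 and 6.89), Gbp5 (19.3, 16.99 and 37.4 against 14.8 and 13.97) and Ifit1 (9.36, 10.9 and 31.2 against 4.14 and 0), all proteins of antiviral defence.

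Genes of cell division had a lower median at day 7 in every pair of libraries. Prc1, which builds the central spindle, had 91.5, 58.6 and 51.00 CPM at day 1 and 16.1 and 23.6 CPM at day 7 (-1.76, SE 0.36). Ccnb2, a mitotic cyclin, had 8.58, 6.66 and 7.36 CPM against 2.77 and 2.88 (-1.41, SE 0.33). Ndc80, of the kinetochore that ties chromosomes to the spindle, had 19.9, 11.8 and 12.2 CPM against 4.42 and 5.61 (-1.55, SE 0.37). Day 1 replicate 1 was the highest library for each of the 3, whereas it was the lowest library for macrophage genes. Top2a, a topoisomerase of dividing cells, had 68.3, 38.96 and 45.1 CPM against 16.2 and 27.5 (-1.22, SE 0.37), and Mki67, a marker of cycling cells, 57.6, 63.4 and 58.95 CPM against 21.1 and 45.99 (-0.84, SE 0.36). All 28 tested mitosis genes were below 0 in fold change, their median was -1.06, and 22 had separate groups that were lower (background 16.3%). Without day 1 replicate 1 the median was -0.93, with 22 again separate (background 23%). By pair the median was -1.83 to -0.52, and between the day 7 libraries, replicate 1 minus replicate 2, it was -0.78. The summed level of the list was 799, 522 and 523 CPM at day 1 and 204 and 366 CPM at day 7.

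DNA replication genes were lower by less. Mcm4, of the helicase that opens DNA for copying, had 35.7, 41.3 and 42.4 CPM at day 1 and 23.4 and 26.3 CPM at day 7 (-0.68, SE 0.20). Tk1, which makes thymidine nucleotides, had 27.3, 25.5 and 26.2 CPM against 9.09 and 17.6 (-0.98, SE 0.34), and Prim1, the primase, 30.6, 22.99 and 28.9 CPM against 16.9 and 18.6 (-0.63, SE 0.23). In these 3 genes the groups were separate, and of the 28 tested members 27 were below 0 in fold change, at a median of -0.41. Groups were separate for 11 members that were lower (background 16.3%), and for 20 without day 1 replicate 1 (background 23%). Against that library the median by pair was -0.11 to -0.083, closer to 0 than the -0.71 to -0.27 against replicates 2 and 3.

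The promoters of 3 mitosis genes are shown because such promoters are known for a CCAAT box and for the cell cycle homology region (CHR), TTTGAA, near the start. RefSeq windows were found for 24 of the 28 tested members. CCAAT, read on both strands, was present in 18 of them (75.0%) beside 35.0% of the windows of tested genes. In the mixed lists its share ran from 14.3% (growth factors) to 86.7% (cholesterol synthesis), so it does not mark lists with a common direction. TTTGAA was present in 12 of them, beside 10.4% of the windows of tested genes, and in 1 of 22 windows of DNA replication genes. Ccnb2 (chr8:79981659-79981908, minus strand), Prc1 (chr1:143659231-143659480, plus strand) and Top2a (chr10:84473094-84473343, minus strand) are printed as GRCr8 has them on the strand of the gene. Capitals mark both motifs on either strand, so that CCAAT may read ATTGG and TTTGAA may read TTCAAA.
Ccnb2: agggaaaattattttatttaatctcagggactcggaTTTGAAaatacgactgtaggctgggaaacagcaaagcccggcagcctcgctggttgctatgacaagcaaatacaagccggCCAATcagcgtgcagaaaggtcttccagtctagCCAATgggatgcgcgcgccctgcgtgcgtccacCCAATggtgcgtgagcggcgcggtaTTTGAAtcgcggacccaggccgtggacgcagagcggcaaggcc
Prc1: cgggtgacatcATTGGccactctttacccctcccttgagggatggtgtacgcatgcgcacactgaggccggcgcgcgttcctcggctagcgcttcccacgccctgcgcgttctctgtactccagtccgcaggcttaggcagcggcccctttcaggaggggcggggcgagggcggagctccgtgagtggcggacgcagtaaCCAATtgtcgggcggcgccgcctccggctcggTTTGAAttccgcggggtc
Top2a: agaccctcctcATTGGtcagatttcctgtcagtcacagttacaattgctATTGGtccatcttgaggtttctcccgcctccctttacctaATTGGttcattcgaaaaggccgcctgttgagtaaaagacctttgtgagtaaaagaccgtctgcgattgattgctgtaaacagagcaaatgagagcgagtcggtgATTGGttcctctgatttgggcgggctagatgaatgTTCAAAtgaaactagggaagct
The CHR letters nearest to the start end 38, 13 and 17 bases before it in the 3 genes. All 28 tested members had a negative fold change but 12 of the 24 windows held TTTGAA, so members without these letters were lower as well.

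Genes that make ribosomes had a lower median in all 6 pairs too. Gnl3, a nucleolar protein of growing cells, had 84.97, 99.4 and 63.3 CPM at day 1 and 39.8 and 38.1 CPM at day 7 (-1.08, SE 0.25). Nop58, of the complexes that modify ribosomal RNA, had 64.7, 81.99 and 57.8 CPM against 34.4 and 37.3 (-0.93, SE 0.23), and Wdr43, which acts in the same processing, 88.6, 102 and 56.8 CPM against 36.3 and 35.3 (-1.20, SE 0.30). The groups were separate in each, and in 15 of the 25 tested members (background 16.3%), with 24 fold changes negative and a median of -0.49. Hk2, the inducible hexokinase, had 131, 232 and 94.2 CPM against 64.1 and 51.2 (-1.40, SE 0.44), Pfkfb4, which tunes glycolysis, 4.29, 7.53 and 3.83 CPM against 2.27 and 2.11 (-1.25, SE 0.47), and Hk1 253, 246 and 121 CPM against 113 and 114 (-0.87, SE 0.37). All 3 were lower at day 7 than in any day 1 library. The 27 glycolysis and hypoxia genes had a median of -0.16, with 7 separate and lower (background 16.3%). Their median was -0.31 without day 1 replicate 1, with 11 separate and lower (background 23%) and 1 separate and higher (background 24.4%). The 14 citric acid cycle genes had a median of -0.25, with 5 separate and lower and 1 separate and higher (backgrounds 16.3% and 17.2%). Without day 1 replicate 1 their median was -0.14, with the same counts. Idh3g had 62.1, 51.1 and 58.9 CPM against 47.3 and 39.2 (-0.41, SE 0.20), Ogdh 78.5, 65.4 and 66.1 CPM against 56.3 and 57.7 (-0.30, SE 0.19) and Dld 97.1, 81.5 and 87.9 CPM against 74.2 and 71.02 (-0.29, SE 0.18), and these subunits of enzymes of the cycle were separate by narrow margins.

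Platelet genes had the most negative median of the 56 lists. Gp9, a subunit of the receptor for von Willebrand factor, had 3.81, 4.42 and 9.70 CPM at day 1 and 0.341 and 0.153 CPM at day 7 (-4.55, SE 0.76). Clec1b, a platelet receptor for podoplanin, had 11.8, 17.02 and 35.7 CPM against 1.99 and 1.35 (-3.68, SE 0.62), and Ppbp, a chemokine of platelet granules, 1.42, 2.02 and 4.02 CPM against 0.181 and 0.153 (-3.86, SE 0.76). Day 1 replicate 3 was the highest library in all 3 genes, and both day 7 libraries were below every day 1 library. The fold change was negative for 12 of 13 tested members, the median was -3.01, and 11 were separate and lower (background 16.3%). P2ry12, a receptor for ADP that is also known from macrophages of the brain, was the 1 exception, with 1.45, 4.98 and 6.03 CPM against 5.64 and 9.34, named after its values were seen. The list summed to 216, 318 and 611 CPM at day 1 and 105 and 94.8 CPM at day 7.

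Red cell and neutrophil transcripts had lower medians in all 6 pairs. Hba-a1, an alpha globin, had 68.96, 32.1 and 39.2 CPM at day 1 and 6.26 and 1.75 CPM at day 7 (-3.54, SE 0.72). Epb42, of the red cell membrane skeleton, had 2.03, 1.03 and 1.56 CPM against 0.381 and 0.306, lower in both day 7 libraries than in any day 1 library. All haemoglobin genes together, whose near copies may share reads, gave 7034, 4030.2 and 3411 CPM at day 1 and 1727 and 153 CPM at day 7, so the ratio between the day 7 libraries was wider than that between any day 1 libraries. All 11 tested red cell genes had a negative fold change (median -2.80) and 10 were separate (background 16.3%). Among neutrophil genes Mmp8, a collagenase of their granules, had 3.74, 2.86 and 10.1 CPM against 0.241 and 0.184 (-4.68, SE 0.83), Lcn2, which binds bacterial iron carriers, 11.3, 10.2 and 37.9 CPM against 2.61 and 1.41 (-3.29, SE 0.80), and S100a9, a subunit of calprotectin, 9.91, 17.4 and 34.3 CPM against 3.83 and 0.490 (-3.23, SE 1.07). In these 3 day 1 replicate 3 was the highest. All 11 tested neutrophil genes had a negative fold change (median -2.33). Separate were 5 (background 16.3%), or 10 without day 1 replicate 1 (background 23%). In that library Csf3r, the receptor for the granulocyte growth factor and likewise named after inspection, had 4.42 CPM. It had 23.7 and 25.99 CPM in the other day 1 libraries and 5.14 and 12.2 at day 7. These 3 lists also mark blood and clot held in the vessel, and the part of that material in the values of other lists was not tested.

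Several regulators of clotting were lower at day 7, among them inhibitors and an activator of clot breakdown. Tfpi2, an inhibitor of plasmin and other serine proteases, had 38.1, 117 and 42.1 CPM at day 1 and 3.73 and 3.46 CPM at day 7 (-4.19, SE 0.67). Serpinb2, an inhibitor of plasminogen activators, had 6.03, 6.60 and 3.18 CPM against 0.843 and 0.306 (-3.17, SE 0.69), and F2rl2, a thrombin receptor, 8.07, 11.4 and 20.96 CPM against 4.58 and 2.76 (-1.87, SE 0.54). Plat, tissue plasminogen activator, had 314, 444 and 275 CPM against 148 and 197 (-0.99, SE 0.31). All 4 were lower in both day 7 libraries than in any day 1 library, activator and inhibitors alike. Of 22 tested members 16 had a negative fold change (median -0.63). Groups were separate for 8 that were lower (background 16.3%) and 3 that were higher (background 17.2%). Without day 1 replicate 1 the counts were 12 (background 23%) and 3 (background 24.4%). Against day 1 replicate 1 the median by pair was 0.014 to 0.14.

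Proteases of the matrix split by member. Mmp2, a gelatinase of stromal cells, was higher at day 7, with 1202, 1103 and 1048 CPM at day 1 and 2190.4 and 2307 CPM at day 7 (1.01, SE 0.28). Adamts9, which cleaves proteoglycans, had 230.3, 201 and 92.1 CPM against 53.1 and 69.6 (-1.51, SE 0.45), and Timp1, an inhibitor of metalloproteinases, 188, 287 and 151 CPM against 113 and 95.6 (-0.997, SE 0.34), both lower. Mmp9 and Mmp12, which neutrophils and macrophages make, had no common level within a group, with 0.807, 87.7 and 39.9 CPM against 65.7 and 5.36 and 0.258, 561 and 135 CPM against 767 and 96.1. The 22 tested members had a median of -0.37. It was positive with limma-voom, both limma-trend fits, the block on title numbers and without day 1 replicate 2. Groups were separate for 6 that were lower (background 16.3%) and 3 that were higher (background 17.2%). The median was -0.68 without day 1 replicate 1, with 9 separate and lower (background 23%) and 3 separate and higher (background 24.4%). Channels of muscle membranes also had a negative median in all 6 pairs (-0.47, or -0.17 without day 1 replicate 1). Trpc6 and Trpm8, cation channels, had 22.2, 25.9 and 20.1 CPM against 3.21 and 6.28 (-2.26, SE 0.38) and 44.5, 28.5 and 70.3 CPM against 8.91 and 12.9 (-2.13, SE 0.46), and Abcc9, a subunit of the ATP-sensitive potassium channel, 538, 332 and 389 CPM against 185 and 245 (-0.96, SE 0.32). These 3 were separate, but only 5 of the 26 members were separate and lower, near the background of 16.3%.

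Targets and inhibitors of TGF-beta and BMP signalling were among the genes that were higher at day 7. Smad6, an inhibitory Smad that BMP signals induce, had 23.2, 20.2 and 20.02 CPM at day 1 and 111 and 119 CPM at day 7, a log2 fold change of 2.44 (SE 0.18), with the smallest edgeR adjusted p of all genes (adjusted p = 0.287). Smad7, the inhibitory Smad of TGF-beta signals, had 54.3, 43.2 and 56.00 CPM against 166 and 187 (1.79, SE 0.21). Id1, a BMP target that blocks differentiation factors, had 52.9, 53.1 and 39.5 CPM against 156 and 152 (1.67, SE 0.21). In these 3 genes day 1 replicate 1 did not stand apart, and the gap between the groups was wider than the range within either. Members named after their values were seen show the ligands. Bmp6 and Bmp4 were higher, with 4.49, 9.74 and 1.78 CPM against 73.3 and 89.2 (3.93, SE 0.71) and 5.20, 12.6 and 4.61 CPM against 26.8 and 29.01 (1.90, SE 0.49). Bmp2 and Inhba, the latter a subunit of activin, were lower, with 32.5, 16.1 and 13.3 CPM against 7.39 and 5.51 (-1.68, SE 0.48) and 258, 947 and 239.7 CPM against 52.4 and 101 (-2.66, SE 0.82). Ligands of the family thus lay on both sides. The BMP antagonist Grem1 had 6.29, 16.1 and 3.21 CPM against 28.5 and 86.4 (2.75, SE 0.81), and the activin antagonist Fst 26.9, 55.6 and 25.6 CPM against 13.7 and 15.2 (-1.32, SE 0.42). Of 27 tested members 17 had a positive fold change, with a median of 0.47, and 9 were separate and higher (background 17.2%) and 3 separate and lower (background 16.3%). The tested receptors Tgfbr1 and Bmpr2, with 77.4, 162 and 129 CPM against 117 and 194 and 276, 188 and 229.5 CPM against 126 and 299, overlapped between the groups. The palindrome GTCTAGAC, to which Smads bind, was in 0 of the 21 windows found for the members, beside 0.158% of the windows of tested genes. At so low a share 21 windows would rarely hold a match, so this count cannot show whether the members differ.

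**Figure D3:**
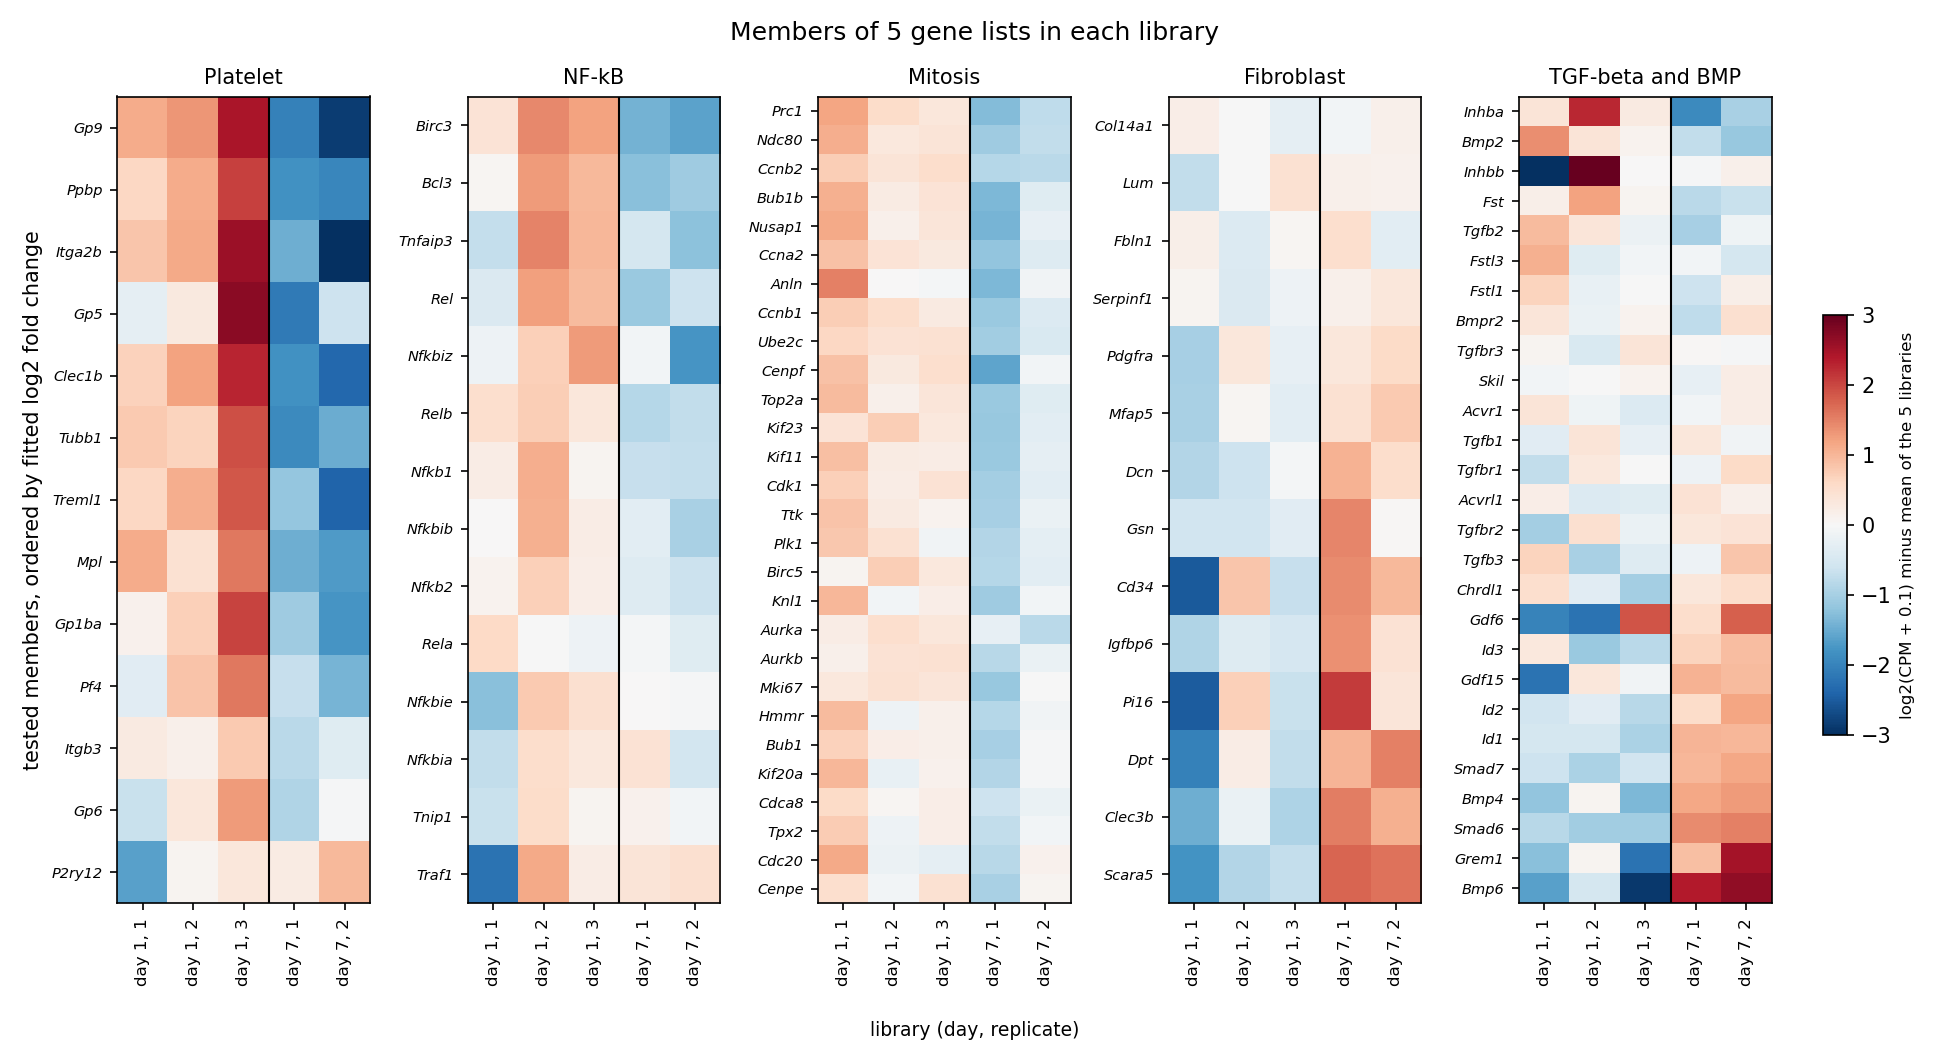
Each panel is a gene list, each row a tested member ordered by fitted log2 fold change and each column a library, with a line between day 1 and day 7. Colour is log2(CPM + 0.1) minus the mean of the 5 libraries. All 28 mitosis genes and 12 of the 13 platelet genes had negative fold changes, all 14 fibroblast genes positive ones, and the TGF-beta and BMP list holds members on both sides.

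Fibroblast markers were higher at day 7. Scara5, a ferritin receptor of fibroblasts of the outer coat, had 17.1, 32.4 and 36.01 CPM at day 1 and 201 and 185 CPM at day 7 (2.76, SE 0.35). Clec3b, which binds plasminogen, had 14.4, 35.1 and 21.3 CPM against 116 and 84.01 (2.08, SE 0.41), and Igfbp6, which binds insulin-like growth factor 2, 66.2, 94.7 and 86.6 CPM against 318 and 169 (1.56, SE 0.34). The groups were separate in each, and the lowest library was day 1 replicate 1. All 14 tested members had a positive fold change, with a median of 1.35, or 1.05 without that library, and 9 were separate and higher with or without it (backgrounds 17.2% and 24.4%). Lum, a matrix proteoglycan, and Col14a1, a collagen, were named after their values were seen and overlapped, with 498, 824 and 1149 CPM against 921 and 915 and 749, 646 and 537 CPM against 616 and 726. The list summed to 3043, 3699 and 4033 CPM at day 1 and 7711 and 5730.4 CPM at day 7.

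Genes of skeletal muscle and fat, which lie beside the artery, varied within the groups. Skeletal muscle genes were highest in day 7 replicate 1 by their sum, with day 1 replicate 1 above day 7 replicate 2. Myh1, a fast myosin, had 0.0645, 0.311 and 0.260 CPM at day 1 and 52.4 and 1.47 CPM at day 7, Myh2 0.0645, 0 and 0 CPM against 1.12 and 0.337 and Actn3, of fast fibres, 0.387, 0.156 and 0.389 CPM against 2.05 and 1.10. Ckm, the muscle creatine kinase, had 23.9, 1.46 and 2.30 CPM against 20.5 and 1.501, with day 1 replicate 1 as high as day 7 replicate 1. All 15 tested skeletal muscle genes had a positive fold change (median 2.33, and as low as 0.13 without day 7 replicate 1). Separate were 4 (background 17.2%), or 9 without day 1 replicate 1 (background 24.4%). The list summed to 39.7 to 148 CPM at day 1 and 278 and 83.3 CPM at day 7. Of 6 tested adipocyte genes 3 were separate and higher (background 17.2%). Pparg, the master factor of fat cells, had 1.42, 2.36 and 2.37 CPM against 6.32 and 5.24. Lipe, a lipase, had 5.97, 11.01 and 6.16 CPM against 19.8 and 13.4, and Cfd, complement factor D, 0.323, 12.04 and 4.41 CPM against 67.9 and 38.7. The defining adipocyte markers Adipoq, Plin1, Lep, Cidec and Ucp1 had 13 counts or fewer in each library and were not tested. The adipocyte list summed to 77.01 to 217 CPM at day 1 and 304 and 153 CPM at day 7, so the groups overlapped in it as in the sum of the muscle genes. The part of muscle and fat in the fibroblast values was not tested.

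The 3 Wnt pathway genes with the smallest unadjusted p encode receptors and were higher at day 7. Fzd2 had 42.1, 27.8 and 36.5 CPM at day 1 and 62.5 and 110.4 CPM at day 7 (1.28, SE 0.32), Fzd4 26.7, 27.2 and 15.96 CPM against 60.4 and 46.9 (1.20, SE 0.30) and Fzd1 60.9, 31.7 and 36.95 CPM against 72.1 and 175 (1.51, SE 0.47). All 3 belong to the frizzled family, and both day 7 libraries were above every day 1 library. Of 25 tested Wnt pathway genes 15 had a positive fold change (median 0.20), 8 were separate and higher (background 17.2%) and 0 separate and lower. The median was 0.47 without day 1 replicate 1, when 11 were separate and higher (background 24.4%). Of the 7 ligands that were tested, Wnt5a, named after its values were seen, had 3.49, 17.3 and 13.5 CPM against 4.96 and 23.6, and none had separate groups.

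Most MHC class II genes were higher at day 7 than in any day 1 library, with the widest gap to day 1 replicate 1. RT1-DMb, which loads peptides on MHC class II, had 0.0645, 0.809 and 0.292 CPM at day 1 and 25.5 and 13.7 CPM at day 7 (5.64, SE 0.97). Ciita, the master activator of these genes, had 0.904, 7.34 and 5.32 CPM against 18.95 and 14.1 (1.87, SE 0.82), and RT1-DOa 0, 0.560 and 0.519 CPM against 1.83 and 2.18. Cd74, the invariant chain, and RT1-Da, a class II alpha chain, chosen after their values were seen, had 4.36, 318 and 148 CPM against 1139 and 733 and 1.19, 125 and 72.9 CPM against 349.6 and 265. Of the 13 tested members 9 were separate and higher (background 17.2%). Without day 1 replicate 1, 9 were separate and higher (background 24.4%) and 1 separate and lower (background 23%). The median was 1.87, and by pair 6.47 to 6.90 against that library and 0.70 to 1.82 against replicates 2 and 3. The costimulatory genes Cd80 and Cd86, also named after their values were seen, overlapped, with 2.78, 18.6 and 13.3 CPM against 8.61 and 10.7 and 0.129, 17.5 and 8.01 CPM against 6.73 and 8.95. RT1 genes are polymorphic and resemble each other, so reads may be split between them.

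Class II promoters share an X and a Y box, and the core of the Y box is CCAAT. It was present on either strand in 8 of the 11 windows found for the list (72.7%), beside 35.0% for tested genes, and the windows of RT1-Da (chr20:4515165-4515414, plus strand) and Cd74 (chr18:56526956-56527205, plus strand) are shown as the 2 abundant members named above. In the mixed lists the share ran from 14.3% to 86.7%, so here too it does not mark lists with a common direction. Capitals mark CCAAT or its reverse, ATTGG, in GRCr8.
RT1-Da: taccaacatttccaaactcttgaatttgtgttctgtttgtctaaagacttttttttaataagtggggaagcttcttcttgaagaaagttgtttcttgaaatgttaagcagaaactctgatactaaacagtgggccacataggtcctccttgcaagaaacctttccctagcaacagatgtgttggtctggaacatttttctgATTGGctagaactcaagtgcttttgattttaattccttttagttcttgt
Cd74: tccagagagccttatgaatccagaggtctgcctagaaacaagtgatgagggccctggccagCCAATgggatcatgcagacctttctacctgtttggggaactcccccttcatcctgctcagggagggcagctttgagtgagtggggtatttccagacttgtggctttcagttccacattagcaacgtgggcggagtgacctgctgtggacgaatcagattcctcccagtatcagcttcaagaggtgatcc
The letters end 45 bases before the start of RT1-Da and 185 before that of Cd74.

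Complement genes were higher at day 7. Cfb, factor B, had 8.04, 17.3 and 20.1 CPM at day 1 and 73.01 and 53.2 CPM at day 7 (2.06, SE 0.43), C4b 22.3, 51.00 and 42.9 CPM against 185 and 89.7 (1.82, SE 0.47), and Serping1, the inhibitor of C1, 95.1, 165 and 205 CPM against 882 and 319 (1.95, SE 0.54). In these the groups were separate, with day 7 replicate 1 the highest. C4b may share reads with C4a. C1qa, a chain of C1q made by macrophages, had 1.65, 70.97 and 20.5 CPM against 200.4 and 115. Of 19 tested members 17 had a positive fold change (median 0.87). With or without day 1 replicate 1, 12 were separate and higher (backgrounds 17.2% and 24.4%). Without that library 2 were separate and lower (background 23%). The receptor C5ar1 and the shield protein Cd55, named after their values were seen, were the 2 with a negative fold change, with 0.775, 122 and 75.5 CPM against 63.7 and 58.7 and 2.52, 63.4 and 29.2 CPM against 20.8 and 12.3.

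The level of macrophage genes at day 1 depended on the library. Cd163, a haemoglobin receptor of macrophages, was higher, with 0.839, 7.06 and 2.82 CPM at day 1 and 56.4 and 26.2 CPM at day 7 (3.53, SE 0.90), and Adgre1, which encodes F4/80, had 0.0323, 29.8 and 18.2 CPM against 35.9 and 64.2. Cd68, a lysosomal protein, had 1.48, 265 and 143 CPM against 228 and 129, and Lyz2, lysozyme, 27.7, 4775 and 1916 CPM against 4655 and 3958. For Cd68 and Lyz2 the groups overlapped, and day 1 replicate 1 was far below all other libraries. The median over 15 markers was 0.65, or 0.083 without day 1 replicate 1. By pair it was 5.95 to 6.004 against that library but -0.27 to 0.68 against replicates 2 and 3. Members were separate and higher in 3 cases, also without that library (backgrounds 17.2% and 24.4%). Without it 2 were separate and lower (background 23%). The list summed to 68.9, 6692 and 3108 CPM at day 1 and 6397 and 5327 CPM at day 7.

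Several genes by which phagocytes handle lipid and haem were also lowest in day 1 replicate 1. Apoe, a lipid carrier, had 62.4, 4026 and 1736 CPM at day 1 and 6519 and 4766 CPM at day 7 (1.54, SE 1.39) and was separate. Nr1h3, a sterol sensor, had 5.49, 12.4 and 14.99 CPM against 25.4 and 14.9, Scarb1, a lipoprotein receptor, 11.3, 72.7 and 33.3 CPM against 116 and 69.4, and Abcg1, a cholesterol exporter, 6.49, 55.8 and 31.3 CPM against 51.2 and 72.9. These 3 overlapped. Spp1, osteopontin, had 1136, 6373 and 6435 CPM against 3315 and 3775, Hmox1, which degrades haem, 77.1, 379 and 150.5 CPM against 312 and 206, and Tfrc, the transferrin receptor, 24.2, 31.9 and 24.2 CPM against 6.99 and 16.3. Of the last 3 only Tfrc was separate, and it was lower. The 17 lipid-handling genes had a median of 0.47, or 0.17 without day 1 replicate 1 and -0.072 without day 7 replicate 1. Of them 1 was separate and higher (background 17.2%). Without day 1 replicate 1, 1 was separate and higher (background 24.4%) and 3 separate and lower (background 23%).

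Most T and NK cell genes had a positive fold change, with the widest gap to day 1 replicate 1. Cd4, which T cells and rat macrophages carry, had 2.55, 79.3 and 18.5 CPM at day 1 and 174 and 155 CPM at day 7. Klrd1, of NK cells, had 0.129, 0.436 and 0.357 CPM against 1.06 and 0.460, Lck, a kinase of the T cell receptor, 1.000, 3.92 and 2.53 CPM against 4.96 and 4.20, and Cd3e, of that receptor, 0.129, 1.37 and 1.85 CPM against 1.97 and 2.11. The margins between the groups were narrow except for Cd4. Of 16 tested members 14 had a positive fold change (median 0.87, or 0.51 without day 1 replicate 1). With or without that library 7 were separate and higher (backgrounds 17.2% and 24.4%). Without it 2 were separate and lower (background 23%). By pair the median was 2.80 to 3.02 against that library and 0.083 to 0.76 against replicates 2 and 3. Cd2, a member named after its values were seen, had 0, 169 and 129 counts at day 1 and 46 and 50 at day 7. DESeq2 called 0 members higher (background 1.65%), and without day 1 replicate 1 it called 0 higher (background 2.38%) and 1 lower (background 2.67%).

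Endothelial genes differed by member. Vwf, von Willebrand factor, had 65.6, 264 and 73.4 CPM at day 1 and 1011 and 814 CPM at day 7 (2.76, SE 0.69), higher at day 7 than in any day 1 library. Pecam1, of endothelial junctions, had 11.9, 116 and 23.9 CPM against 175 and 116, where day 1 replicate 2 was level with day 7 replicate 2. Cldn5, also of junctions, had 6.42, 37.5 and 16.5 CPM against 112 and 36.7, and Erg, an endothelial transcription factor, 34.3, 65.5 and 52.5 CPM against 73.01 and 69.2. The 19 tested members had a median of 0.53, or 0.19 without day 1 replicate 1. Groups were separate for 5 that were higher (background 17.2%) and 1 that was lower (background 16.3%). The sum of all 19 was 428, 2322 and 709 CPM at day 1 and 2556 and 1895 CPM at day 7, so day 1 replicate 2 lay between the day 7 libraries.

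Cartilage-type matrix genes had a higher median at day 7, and 10 of 15 were higher in replicate 2 than in replicate 1. Comp, a matrix protein of tendon and cartilage that injured arteries also make, had 3.94, 15.8 and 16.97 CPM at day 1 and 199 and 312 CPM at day 7 (4.39, SE 0.69). Cilp, of cartilage matrix, had 4.52, 15.2 and 4.48 CPM against 46.7 and 143 (3.56, SE 0.78), and Col2a1, the cartilage collagen, 0.194, 0.187 and 0.0973 CPM against 0.422 and 7.84. Comp and Cilp were well apart between the groups, while Col2a1 was near the floor in 4 libraries. Acan, aggrecan, had 3.23, 159.7 and 136 CPM against 96.9 and 812 and overlapped. Of 15 tested members 12 had a positive fold change (median 0.75). Groups were separate for 4 that were higher (background 17.2%) and 1 that was lower (background 16.3%). The median was 0.42 without day 1 replicate 1, with 5 separate and higher (background 24.4%).

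By their median, contractile genes of smooth muscle were higher at day 7 than in day 1 replicates 2 and 3 and lower than in replicate 1. Acta2, smooth muscle actin, had 12744, 2637 and 2931 CPM at day 1 and 4974 and 5808 CPM at day 7, and Myh11, smooth muscle myosin, 7703, 1686 and 3331 CPM against 5278 and 4902. In both the day 7 libraries lay between day 1 replicate 1 and its fellows. Des, desmin, was separate and higher, with 65.8, 31.1 and 37.2 CPM against 122 and 196 (1.83, SE 0.40), as was Pln, phospholamban, with 247, 39.5 and 80.4 CPM against 254 and 344 (1.29, SE 0.77). The 25 tested members had a median of 0.077, or 0.86 without day 1 replicate 1, when 18 were separate and higher (background 24.4%) in place of 2 (background 17.2%). The median turned negative when day 1 replicate 2 or 3, or day 7 replicate 2, was left out. The median by pair was -0.91 to -0.57 against replicate 1 and 0.42 to 1.24 against replicates 2 and 3. Genes of modulated smooth muscle had a median of -0.10, or -0.27 without day 1 replicate 1, that was positive with both limma-trend fits and with the block on title numbers. Thbs1, thrombospondin 1, had 605, 3472 and 1328 CPM against 183 and 530.3 (-2.34, SE 0.94), and Klf4, a factor of modulation, 179, 262 and 288 CPM against 198 and 103.

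Elastic fibre and collagen genes did not share a direction. Eln, elastin, was lower, with 74714, 17718 and 15379 CPM at day 1 and 3776 and 11507 CPM at day 7 (-2.23, SE 1.03), and separate although day 1 replicate 1 was far above its fellows. Without that library its log2 fold change was -1.11. Efemp1 and Mfap5, proteins of elastic microfibrils, were higher, with 3.74, 11.6 and 3.34 CPM against 33.4 and 17.1 (2.02, SE 0.66) and 31.5, 64.6 and 49.7 CPM against 85.9 and 107 (0.99, SE 0.33). The 19 elastic fibre genes had a median of 0.19, which was negative without day 7 replicate 2. Separate and higher were 2 (background 17.2%), or 5 without day 1 replicate 1 (background 24.4%). Separate and lower were 4 with or without that day 1 library (backgrounds 16.3% and 23%). Col27a1, a fibrillar collagen of cartilage, was lower, with 115, 97.1 and 87.99 CPM against 33.04 and 30.5 (-1.65, SE 0.21). Col16a1 and Col11a1 were higher, with 116, 181 and 173 CPM against 223 and 338 (0.84, SE 0.31) and 13.7, 134 and 65.5 CPM against 189.9 and 473 (2.22, SE 0.94). Col1a1, the main collagen of the wall, had 8469, 12193 and 10732 CPM against 7429.8 and 14518 and overlapped, and the 18 collagens had a median of 0.21, or 0.10 without day 1 replicate 1, which was negative without day 7 replicate 2, with the block on description numbers and with limma-voom without day 1 replicate 1.

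**Figure D4:**
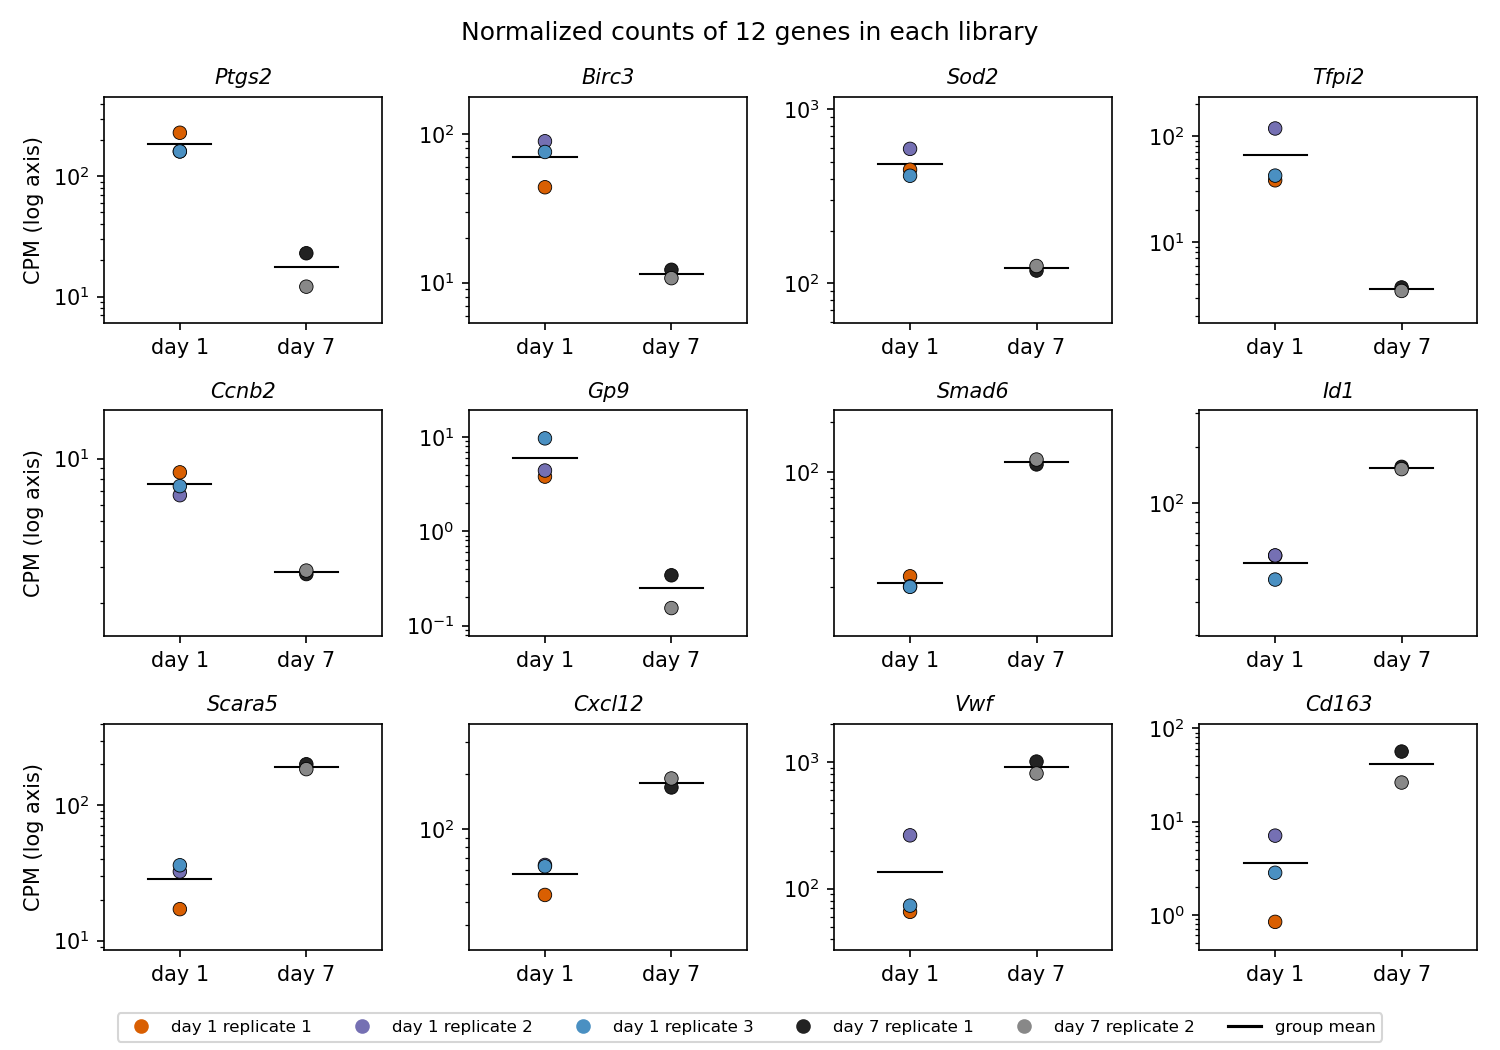
Normalized counts of 12 genes in each of the 5 libraries, on a log axis, with the mean of each group as a bar. Ptgs2, Birc3, Sod2, Tfpi2, Ccnb2 and Gp9 were lower in both day 7 libraries than in the 3 day 1 libraries, and Smad6, Id1, Scara5, Cxcl12, Vwf and Cd163 were higher. Day 1 replicate 1 is the lowest library for Scara5, Vwf and Cd163 and the highest for Ptgs2 and Ccnb2.

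Genes outside the lists described, with the smallest unadjusted p, follow. Among those higher at day 7 were Aldh3a1, an aldehyde dehydrogenase, with 3.42, 2.86 and 3.08 CPM at day 1 and 53.7 and 22.7 CPM at day 7 (3.61, SE 0.41), and Ddit4, an inhibitor of the growth kinase mTORC1, with 65.3, 52.96 and 52.9 CPM against 225 and 179.6 (1.82, SE 0.22). Ntn4, a netrin of basement membranes, had 2.71, 4.33 and 4.83 CPM against 22.2 and 30.5 (2.73, SE 0.35), and Pla2g15, a lysosomal phospholipase, 13.3, 18.6 and 17.1 CPM against 59.00 and 47.03 (1.70, SE 0.24). Cpxm2, of the carboxypeptidase family, had 6.002, 11.5 and 14.9 CPM against 68.8 and 76.7 (2.75, SE 0.40), and Cygb, the globin of fibroblasts, 13.97, 17.1 and 15.8 CPM against 83.2 and 44.9 (2.04, SE 0.31). These 6 had an edgeR adjusted p = 0.397 each, and the lowest day 7 library was above the highest day 1 library in all of them. Sost, sclerostin, an inhibitor of Wnt receptors, was nearly absent at day 1, with 3, 2 and 3 counts, and had 820 and 2245 counts at day 7, or 0.0968, 0.0622 and 0.0973 CPM against 16.5 and 68.8. No fold is given for it because the day 1 counts are at or under the floor of 3.

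Lower at day 7 outside the lists were Tiam2, Nrgn, Dusp10, Ell2, Zc3h12c and Fbxo27. Tiam2, an activator of the small GTPase Rac, had 82.4, 108 and 74.9 CPM at day 1 and 14.4 and 22.7 CPM at day 7 (-2.26, SE 0.32). Nrgn, neurogranin, which binds calmodulin and is also a platelet transcript, had 39.7, 47.8 and 97.6 CPM against 6.20 and 4.41 (-3.54, SE 0.52), highest in day 1 replicate 3 like the platelet genes. Dusp10, a phosphatase that switches off stress kinases, had 26.2, 29.3 and 17.9 CPM against 6.68 and 5.67 (-1.99, SE 0.32). Day 1 replicate 1 lay between its fellows for Tiam2 and Dusp10 and was the lowest of day 1 for Nrgn. Ell2, an elongation factor of RNA polymerase II, had 126, 160.2 and 122 CPM against 43.1 and 53.4 (-1.496, SE 0.24), Zc3h12c, of a family that degrades inflammatory transcripts, 38.6, 47.3 and 40.5 CPM against 14.8 and 17.8 (-1.37, SE 0.22), and Fbxo27, of a ubiquitin ligase, 32.6, 32.1 and 20.7 CPM against 7.27 and 7.17 (-1.98, SE 0.30). Fos, an immediate early gene, had no common level within a group, with 1557, 169 and 2079.9 CPM against 1285 and 692.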

How the data were processed

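Poly(A) RNA of 6 rat carotid arteries was sequenced, and 5 libraries entered the comparison. The authors deposited raw read counts per gene symbol for 24005 genes, and FPKM values, scaled by gene length and library total. Tools named by the submitters' processing notes were StringTie 1.3.1, HISAT2, Bowtie2 2.2.8 and fastp 0.18.0. Not given in the sources used here are the genome build, the annotation and the strand setting. Overlapping and antisense genes may therefore share reads.

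Genes passing edgeR's filterByExpr (14981) were fitted in R 4.3.3 with edgeR 4.0.16 (TMM factors, robust quasi-likelihood test, 3 residual degrees of freedom, Benjamini-Hochberg, threshold 0.05). DESeq2 1.42.0, limma 3.58.1 (voom, and limma-trend on deposited FPKM with pseudocounts of 1 and 0.1), other factors and filters, and leaving out each library were alternatives. The edgeR and DESeq2 steps were tested on simulated data, the limma steps were not. Intervals are not given, and SEs cover the spread between libraries.

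Gene lists were described by counts and medians, without a set test. The members and lists were chosen with earlier results of these data known. Named genes were, in each direction, the 12 with the smallest unadjusted p, separate groups and an average log2 CPM of at least 3, the 3 of each described list with the smallest p, and a fixed set of 31. Genes past the threshold were also to be named, with and without day 1 replicate 1, and there were 0. A few of these genes are not reported here. Others are marked in the text as chosen after their values were seen. Promoters came from RefSeq (GRCr8), which the counts need not share, and only symbols were matched.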

Additional observations from a re-analysis of the deposited data

How the results depend on the processing

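The count of 0 called genes was the same with both other sets of edgeR factors, both other count filters, non-robust dispersions, a 2-fold glmTreat threshold, all 6 libraries in the fit, haemoglobin and mitochondrial genes left out, limma-voom and limma-trend, and was 0 to 0 with each library left out in turn. DESeq2 called 575 genes, or 749 without day 1 replicate 1, and with DESeq2 74 of the 139 named genes passed the threshold, 80 without that library. DESeq2, limma-voom and the fit of all 6 libraries, each without day 1 replicate 1, were chosen after seeing the data. The cause of these differences was not tested.

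The labels do not say whether the replicate numbers pair the libraries, and titles and descriptions number the day 7 libraries differently. The libraries were not treated as pairs in the main fit. Deviations of same-numbered libraries from their group mean correlated at r = -0.0529 and -0.0615 for title numbers and 0.0615 and -0.011 for description numbers. With only a pair of day 7 libraries, the deviations of one are the negative of the other's. The values -0.0615 and 0.0615 are therefore the same value with its sign reversed, and these correlations cannot decide the pairing. With a replicate block on title numbers 0 genes were called. With a replicate block on description numbers 103 were called (44 higher and 59 lower), and 28 of the named genes passed.

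Fold changes of 11 of the 139 named genes changed sign. With limma-voom the log2 fold change was 0.22 for Acta2, 0.53 for Mmp9 and 0.17 for Fos. With limma-trend at pseudocounts of 1 and 0.1 it was 0.33 and 0.34 for Acta2, 0.091 and 0.091 for Spp1, 0.013 and 0.39 for Mmp9 and 0.32 and 0.32 for Fos. With the block on title numbers it was 0.39 for Spp1, 1.05 for Mmp9, 0.88 for Fos and -0.10 for Ckm, and with the block on description numbers 0.95 for Acta2, -0.14 for Col1a1, -0.18 for Cd68, -0.017 for Mmp12 and 0.67 for Fos. Without day 1 replicate 1, in DESeq2, limma-voom and the fit of all 6 libraries in turn, Acta2 had 0.94, 0.96 and 0.95, Col1a1 -0.079, -0.12 and -0.062 and Cd68 -0.21, -0.19 and -0.19. Hmox1 had -0.055 with DESeq2 and -0.031 with all 6 libraries, and Mmp12 -0.072 and Fos 0.65 with limma-voom, again without that library. With each library left out in turn the log2 fold change ranged from -0.54 to 0.96 for Acta2, -0.12 to 1.02 for Myh11, -0.49 to 0.47 for Col1a1, -0.19 to 1.31 for Cd68, -2.99 to 0.80 for Mmp9, -1.27 to 2.68 for Mmp12, -0.031 to 1.19 for Hmox1, -0.88 to 0.21 for Fos, -0.039 to 3.03 for Acan and -2.62 to 2.55 for Ckm.

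Depth limits genes with few reads: the floor of 3 counts is 0.0602 to 0.0973 CPM, and it covers counting error only.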
